A study of Mus musculus with 20 samples.

Results

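The genes described here are the Rab GTPases, taken as every row of the count table of bone marrow-derived dendritic cells (BMDCs) whose gene symbol is Rab followed by a number and, in some, a letter. This rule found 59 of the 24421 genes in the table and leaves out the proteins that regulate or bind Rabs. Of the 59 genes, 46 passed the filter on low counts and were tested, and 13 did not. RNA-seq was done on 20 libraries from BMDCs of 5 wild-type C57BL/6 mice, labelled A to E, each mouse giving 1 library to each of 4 groups, Ova or IC in DMSO and Ova or IC in iBET. Marrow was cultured for 8 days with 40 ng/mL GM-CSF, so the cells are an in vitro model and not dendritic cells taken from tissue. iBET is I-BET151, an inhibitor of the BET bromodomain proteins that read acetylated histones, used at 3.3 µM, and the DMSO groups had 5% of the solvent by the labels. The labels did not state the solvent content of the iBET groups, so a difference in solvent cannot be told apart from the drug. Cells received ovalbumin alone (Ova) or ovalbumin bound by IgG (immune complexes, IC), which cross-links Fcγ receptors, for 4 hours. The labels describe drug and stimulus as simultaneous, whereas the methods place the drug first.

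Rab GTPases are small membrane switches that are active when bound to GTP and inactive when bound to GDP. Guanine nucleotide exchange factors turn them on, GTPase activating proteins turn them off, and a lipid tail holds the active form on 1 kind of membrane, where it recruits effectors such as tethers and motors. In dendritic cells they direct what happens to an antigen after uptake: Rab5 proteins act on early endosomes, Rab7 on late endosomes and lysosomes, Rab11, Rab8 and Rab10 on the return to the surface, and Rab27a, Rab32 and Rab38 on lysosome-related and secretory organelles. They also serve the transport between endoplasmic reticulum and Golgi that every cell needs.

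Levels are given as CPM, a count divided by the library size after TMM scaling and multiplied by a constant, and 5 values in a row follow mice A to E. Libraries held about 16447500 to 29245200 counts, of which the ribosomal RNA gene Rn45s took 2.69% to 8.61%. Of the markers of GM-CSF dendritic cells, Itgax was at 1718 to 2725 CPM and Cd74 at 1859 to 5368 CPM, whereas Cd209a had at most 14 counts and Ciita, the master regulator of MHC class II genes, had a mean of 43.8 CPM in DMSO Ova and 1.36 in iBET Ova. The 10 markers of these cells summed to 8511 to 10189 CPM in DMSO Ova, 9581 to 11026 in DMSO IC, 10712 to 12267 in iBET Ova and 12027 to 14365 in iBET IC. The summed level of 6 macrophage markers was 1188 to 1774 CPM in DMSO Ova, 1261 to 1723 in DMSO IC, 833 to 1177 in iBET Ova and 882 to 1322 in iBET IC (medians 1423, 1352, 987 and 1075), and its part in the iBET results was not tested. Of the markers of other cells, 8 neutrophil markers summed to 12.3 to 55.4 CPM and 7 mast cell and basophil markers to 10.4 to 46.3 CPM over the groups, 5 lymphocyte markers to at most 0.488 CPM, and the neutrophil marker Elane reached no more than 1 count in a library. In bulk RNA, fewer cells of a type and less RNA per cell cannot be told apart. The libraries were paired by mouse, and the second principal component (14.9% of the variance) set mice A and B apart from mice C, D and E, for which no batch was named.

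Together the 59 genes made up 3332 ± 93.4 CPM in DMSO Ova, 3668 ± 126 in DMSO IC, 3085 ± 80.6 in iBET Ova and 3274 ± 59.8 in iBET IC (SD, n = 5), which is 0.293% to 0.385% of the counts of a library. Levels of different genes were compared per length, as mean CPM per kb of exon, and ratios of CPM between relatives were used only to follow a pair over the groups. Per kb, Rab7, the Rab of the late endosome, stood highest at 114 to 163 over the 4 group means, followed by Rab8b, which serves delivery to the surface, at 83.8 to 133, and by Rab5c of the early endosome at 80.5 to 90.1. Rab1b and Rab1 (the symbol used for Rab1a), of endoplasmic reticulum to Golgi transport, had 54.2 to 65.3 and 41.1 to 55.6 per kb, and Rab10, of surface delivery, 53.1 to 61.6. The lower end of the tested genes was formed by Rab30, Rab37 and Rab39, with 0.0408 to 0.318 per kb. Of the 46, 7 were called in no comparison by edgeR over all 20 libraries, with or without the mouse as a block: Rab21, Rab37, Rab40c, Rab2a, Rab35, Rab39 and Rab9.

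**Figure D1:**
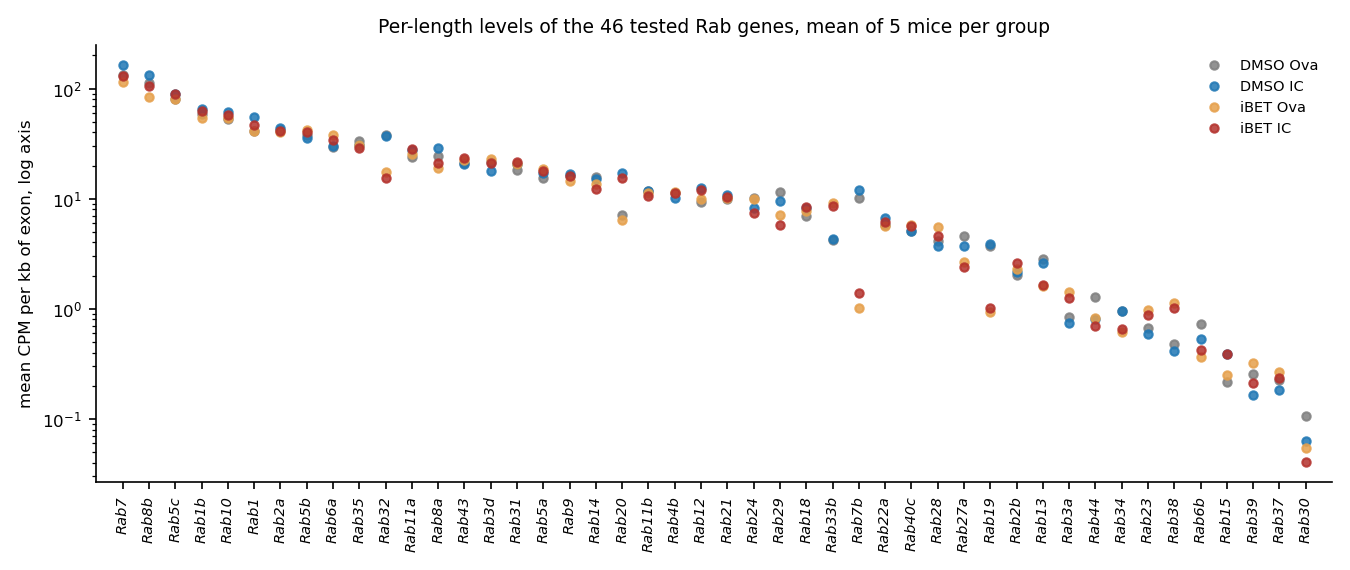
Per-length levels of the 46 tested Rab genes, each point the mean CPM per kb of exon of 5 mice in 1 group on a log axis, genes ordered by their mean over the groups. Most genes hold their place in all 4 groups, whereas the iBET points of Rab7b, Rab32 and Rab19 lie below their DMSO points, those of Rab33b and Rab38 lie above, and the IC points of Rab20 lie above its Ova points.

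The 13 Rabs that were not tested were near the limit of detection. Rab33a and Rab42 had 1 to 10 counts in each library. Rab4a, Rab25, Rab26, Rab27b, Rab36, Rab39b, Rab3b, Rab40b and Rab17 had between 0 and 9, and Rab9b and Rab3c had a single count in 1 of the 20 libraries. Rab27b, which shares secretion with Rab27a in many cells, stood at 0.113, 0.356, 0.0942, 0.105 and 0 CPM in DMSO Ova, at 0.106, 0.227, 0, 0.125 and 0.0406 in DMSO IC, at 0.0808, 0.217, 0, 0 and 0.0418 in iBET Ova and at 0.111, 0.114, 0.103, 0 and 0 in iBET IC, with at most 6 counts per library, and no difference was detectable at this depth. In pairs with 1 untested gene the other carried most reads: Rab27a over Rab27b, Rab4b over Rab4a, Rab9 over Rab9b, Rab33b over Rab33a and Rab40c over Rab40b. These pairs were picked by the filter and do not stand for all families. Pairs with both genes tested could be near even, such as Rab1b and Rab1 at a mean of 60.1 and 46.2 CPM per kb over all libraries. Others were uneven, such as Rab32 and Rab38 at 26.9 and 0.759.

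In some Rabs mice A and B stood apart from the others. Rab39, implicated in phagosomal antigen handling, stood at 0.226, 0.178, 1.18, 1.44 and 0.769 CPM in DMSO Ova, at 0.0530, 0.227, 0.747, 0.958 and 0.487 in DMSO IC, at 0.364, 0.380, 1.93, 1.31 and 0.753 in iBET Ova and at 0.0740, 0.114, 1.09, 0.811 and 1.06 in iBET IC. Mice A and B had the lower values in each group, on 1 to 41 counts per library. Rab30 of the Golgi had the same order, with mice A and B at 0.106 to 0.491 CPM over their 8 libraries and mice C, D and E at 0.429 to 1.51 over 12. With the mouse as a replicate block Rab30 passed as lower with iBET in Ova, at a log2 fold change of -0.87 ± 0.26 for Rab30 (edgeR adjusted p = 0.00606), and as lower with IC in DMSO, at -0.72 ± 0.25 for Rab30 (edgeR adjusted p = 0.0305). Rab30 had 2 to 40 counts per library. Its change with iBET in Ova was -0.18 in mice A and B alone (edgeR adjusted p = 0.849) and -1.03 in mice C, D and E alone (edgeR adjusted p = 0.00284).

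The first question was what iBET did to Rab transcripts when no Fc receptor was engaged and when it was. In the presence of Ova, 8 of the 46 tested Rabs passed the test as higher with iBET (17.4%) and 13 as lower (28.3%), beside 27.7% and 28.9% of the 12465 genes tested. In the presence of IC, 9 were higher (19.6%) and 11 lower (23.9%), beside 27.1% and 29.0% of all genes. The lower share was near that of all genes, and the higher share was below it. The median log2 fold change of the 46 was 0.012 with Ova and -0.058 with IC, against -0.0029 and -0.0054 over all genes, and the median of its absolute value was 0.21 with Ova and 0.22 with IC against 0.36 in both over all genes. Calls used edgeR's quasi-likelihood test, adjusted over all genes at 0.05. With library size in place of TMM the IC counts were 6 higher and 14 lower, beside 23.9% and 32.3% of all genes.

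**Figure D2:**
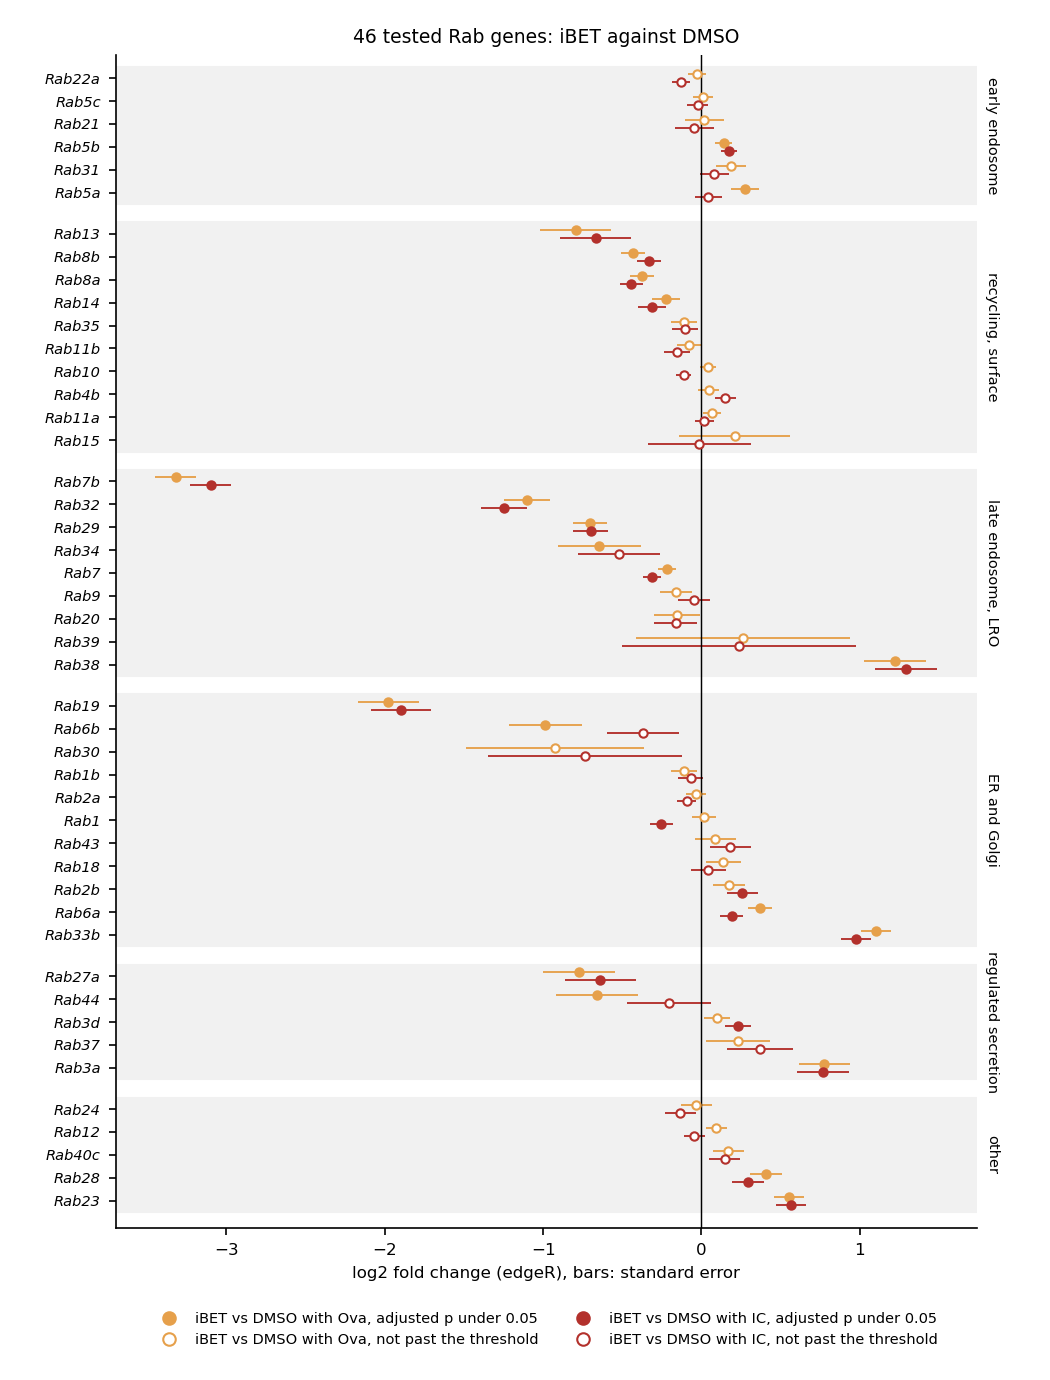
Log2 fold change of iBET against DMSO for the 46 tested Rab genes, with Ova (orange) and with IC (red), in groups by role, bars giving the standard error and filled points the genes with an edgeR adjusted p under 0.05. Rab7b lies farthest below 0 at -3.32 and -3.10, followed by Rab19 and Rab32, and Rab38 and Rab33b lie farthest above.

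The Rabs of late endosomes, phagosomes and lysosome-related organelles held the member with the largest fall, Rab7b. With Ova, 1 of 9 passed the test as higher and 5 as lower (median log2 fold change -0.22), beside 27.7% and 28.9% of all genes, and with IC, 1 of 9 passed the test as higher and 4 as lower (median log2 fold change -0.31), beside 27.1% and 29.0%. The 5 that fell with Ova were Rab7b, Rab32, Rab29, Rab34 and Rab7, and the 1 that rose was Rab38.

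Rab7b (GRCm38 chr1:131688695-131715439, plus strand), a Rab of late endosomes and the trans-Golgi network that takes Toll-like receptors towards lysosomes, changed most of all Rabs. Rab7b stood at 51.2, 51.9, 39.5, 51.8 and 41.1 CPM in DMSO Ova and at 5.05, 4.66, 3.44, 5.58 and 4.69 CPM in iBET Ova. With IC, Rab7b stood at 57.9, 48.2, 55.4, 59.6 and 53.4 CPM in DMSO and at 7.66, 5.19, 6.68, 7.11 and 5.34 CPM in iBET. Every iBET library lay below every DMSO library. Rab7b was 9.99-fold lower with Ova (log2 fold change -3.32 ± 0.13 (SE), edgeR adjusted p = 1.29e-13) and 8.56-fold lower with IC (log2 fold change -3.10 ± 0.13 (SE), edgeR adjusted p = 2.54e-13). The fold change with Ova was -3.41 in mice A and B alone (edgeR adjusted p = 2.89e-06) and -3.21 in mice C, D and E alone (edgeR adjusted p = 2.18e-09). Its namesake Rab7, which drives fusion of late endosomes with lysosomes, moved far less. Rab7 stood at 356, 336, 342, 354 and 346 CPM in DMSO Ova and at 269, 291, 311, 321 and 299 CPM in iBET Ova. With IC, Rab7 stood at 402, 423, 436, 420.1 and 441 CPM in DMSO and at 304, 340.0, 357, 338 and 373 CPM in iBET. Rab7 was lower in 5 of 5 mice with Ova (log2 fold change -0.22 ± 0.058 (SE), edgeR adjusted p = 0.00370) and lower in 5 of 5 mice with IC (log2 fold change -0.31 ± 0.058 (SE), edgeR adjusted p = 1.44e-04), and the groups did not overlap in either comparison. Without mouse B the Ova difference narrowly missed the threshold (edgeR adjusted p = 0.050005), and in mice C, D and E alone the log2 fold change was -0.11 (edgeR adjusted p = 0.122). The ratio of Rab7 to Rab7b CPM was 7.46 ± 0.995 in DMSO Ova, 7.79 ± 0.790 in DMSO IC, 65.5 ± 14.6 in iBET Ova and 55.2 ± 12.5 in iBET IC (SD, n = 5).

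Rab32 and Rab38 are close relatives that act together in the making of melanosomes and other lysosome-related organelles, and here they moved in opposite directions. Rab32 stood at 115, 94.2, 76.1, 76.9 and 78.5 CPM in DMSO Ova and at 45.7, 45.1, 38.0, 39.1 and 37.4 CPM in iBET Ova. With IC, Rab32 stood at 101, 105, 76.0, 78.8 and 69.8 CPM in DMSO and at 44.7, 42.6, 30.8, 33.4 and 29.7 CPM in iBET. For Rab32 the groups did not overlap, and it was 2.15-fold lower with Ova (log2 fold change -1.10 ± 0.14 (SE), edgeR adjusted p = 2.12e-06) and 2.37-fold lower with IC (log2 fold change -1.25 ± 0.14 (SE), edgeR adjusted p = 4.35e-07). Rab38 stood at 0.868, 0.652, 0.612, 0.911 and 0.718 CPM in DMSO Ova and at 2.34, 1.73, 1.87, 1.62 and 1.34 CPM in iBET Ova. With IC, Rab38 stood at 0.742, 0.454, 0.887, 0.4996 and 0.690 CPM in DMSO and at 1.70, 1.59, 1.40, 1.76 and 1.56 CPM in iBET. All iBET libraries were above all DMSO libraries for Rab38, on 10 to 58 counts per library, and it was 2.33-fold higher with Ova (log2 fold change 1.22 ± 0.19 (SE), edgeR adjusted p = 2.19e-05) and 2.45-fold higher with IC (log2 fold change 1.29 ± 0.20 (SE), edgeR adjusted p = 1.45e-05). The Rab32 to Rab38 CPM ratio was 119 ± 23.1 in DMSO Ova, 142 ± 57.3 in DMSO IC, 23.6 ± 3.59 in iBET Ova and 22.6 ± 3.78 in iBET IC (SD, n = 5). Rab32 also showed that mice A and B can stand apart, with the 2 highest values in each group.

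Rab29, which recruits the kinase Lrrk2 to Golgi and lysosomal membranes, fell in both settings. Rab29 stood at 18.8, 16.8, 14.9, 17.5 and 16.4 CPM in DMSO Ova and at 10.7, 10.9, 7.82, 11.6 and 10.8 CPM in iBET Ova. With IC, Rab29 stood at 16.2, 14.0, 13.0, 13.7 and 12.3 CPM in DMSO and at 9.77, 8.94, 7.35, 9.16 and 7.23 CPM in iBET. The groups did not overlap in either comparison. Its change was about the same with Ova (log2 fold change -0.70 ± 0.11 (SE), edgeR adjusted p = 1.62e-05) and IC (log2 fold change -0.70 ± 0.11 (SE), edgeR adjusted p = 1.95e-05). Rab34, a Rab of phagosome maturation with 19 to 98 counts per library, was lower in 5 of 5 mice with Ova (log2 fold change -0.65 ± 0.26 (SE), edgeR adjusted p = 0.0419), and its groups overlapped: 1.54 to 3.70 CPM in DMSO Ova and 1.03 to 2.101 in iBET Ova. The Rab34 adjusted p of edgeR was 0.213 without mouse B, 0.0675 without mouse C and 0.0743 without mouse D. Within sets of mice its log2 fold change was -1.02 in mice A and B alone (edgeR adjusted p = 0.0336) and -0.23 in mice C, D and E alone (edgeR adjusted p = 0.325). With IC, Rab34 was not called in the unblocked fit of all 20 libraries and passed with the replicate block, at -0.54 ± 0.15 for Rab34 (edgeR adjusted p = 0.00489). Rab34, Rab3a, Rab6b, Rab19, Rab44, Rab2b, Rab22a, and the Rabs called with the block but not in the unblocked fit that are given without values in every library, were named after their values were seen.

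**Figure D3:**
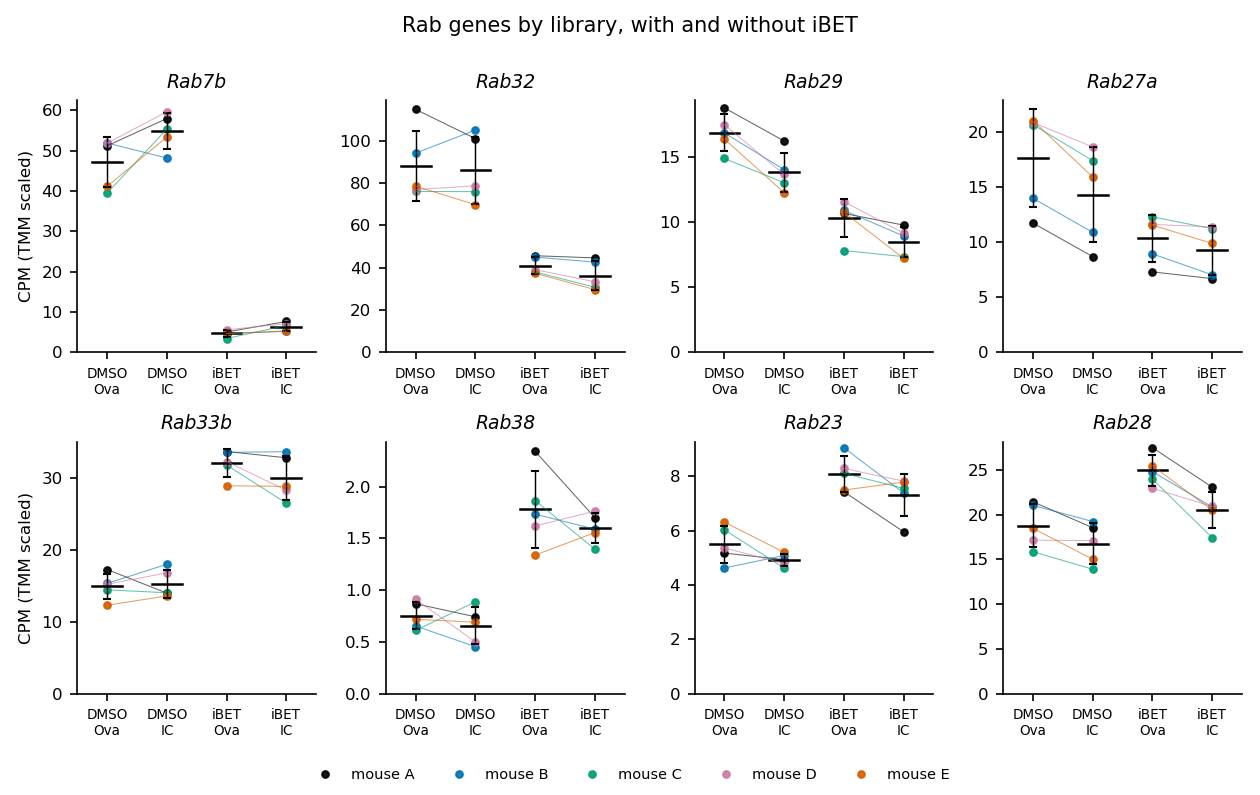
CPM of 8 Rab genes in each library, with points coloured by mouse, lines joining the Ova and IC libraries of 1 mouse, and bars giving the mean ± SD of 5 mice per group. The iBET groups of Rab7b, Rab32 and Rab29 lie wholly below the DMSO groups of the same stimulus and those of Rab33b, Rab38 and Rab23 wholly above, whereas the groups of Rab27a overlap, with mice A and B lowest in each.

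Secretory Rabs moved both ways. With Ova, 1 of 5 passed the test as higher and 2 as lower (median log2 fold change 0.10), beside 27.7% and 28.9% of all genes. With IC, 2 of 5 passed the test as higher and 1 as lower (median log2 fold change 0.23), beside 27.1% and 29.0%. Rab27a, which docks secretory lysosomes and, in dendritic cells, brings NADPH oxidase to phagosomes, was lower in 5 of 5 mice with either stimulus. Rab27a stood at 11.7, 14.0, 20.7, 20.9 and 21.03 CPM in DMSO Ova and at 7.31, 8.95, 12.3, 11.6 and 11.5 CPM in iBET Ova. With IC, Rab27a stood at 8.69, 10.9, 17.4, 18.7 and 15.9 CPM in DMSO and at 6.70, 7.04, 11.2, 11.4 and 9.90 CPM in iBET. Its groups overlapped, and mice A and B were lowest in all 4. Rab27a fell with Ova (log2 fold change -0.77 ± 0.22 (SE), edgeR adjusted p = 0.00626) and with IC (log2 fold change -0.64 ± 0.23 (SE), edgeR adjusted p = 0.0215), where the edgeR adjusted p was 0.0513 without mouse B, 0.0604 without mouse C, 0.0602 without mouse D and 0.0716 without mouse E. These fits did not hold the mouse as a block. Within sets of mice the IC change was called in both. It was -0.50 in mice A and B alone (edgeR adjusted p = 0.0400) and -0.65 in mice C, D and E alone (edgeR adjusted p = 2.47e-05). Rab3a, an exocytic Rab best known from synapses, rose from 1.86 ± 0.465 CPM (SD, n = 5) in DMSO Ova to 3.17 ± 0.483 CPM (SD, n = 5) in iBET Ova (log2 fold change 0.78 ± 0.16 (SE), edgeR adjusted p = 3.87e-04) and from 1.65 ± 0.264 CPM (SD, n = 5) in DMSO IC to 2.81 ± 0.221 CPM (SD, n = 5) in iBET IC (log2 fold change 0.77 ± 0.16 (SE), edgeR adjusted p = 4.70e-04). Its groups did not overlap on 23 to 99 counts per library. Rab3d is the granule Rab of many secretory cells. With IC, Rab3d stood at 77.9, 78.3, 66.6, 78.7 and 75.3 CPM in DMSO and at 92.8, 87.3, 87.4, 89.5 and 85.03 CPM in iBET. It was higher in 5 of 5 mice and passed the test with IC (log2 fold change 0.23 ± 0.083 (SE), edgeR adjusted p = 0.0229), though not without mouse A or C (edgeR adjusted p of 0.0613 without mouse A and 0.0662 without mouse C) nor with library size in place of TMM (0.0508). Rab44, a large Rab with a role in mast cell granules, was lower in 4 of 5 mice with Ova (log2 fold change -0.66 ± 0.26 (SE), edgeR adjusted p = 0.0366) at 3.73 to 9.18 CPM in DMSO and 2.99 to 5.66 in iBET, and its edgeR adjusted p was 0.145 without mouse D and 0.132 without mouse E. The sum of mast cell and basophil markers was 15.2 to 46.3 CPM in DMSO Ova and 10.8 to 34.0 in iBET Ova, and its part in the Rab44 value was not tested.

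The Rabs of recycling and surface delivery gave only lower calls with iBET in the unblocked fit. With Ova, 0 of 10 passed the test as higher and 4 as lower (median log2 fold change -0.093), beside 27.7% and 28.9% of all genes. With IC, 0 of 10 passed the test as higher and 4 as lower (median log2 fold change -0.13), beside 27.1% and 29.0%. The 4 called with each stimulus were Rab8b, Rab8a, Rab13 and Rab14. Rab8b and Rab8a carry vesicles from the trans-Golgi network and recycling endosomes to the plasma membrane. Rab8b stood at 511, 535, 505, 541 and 584 CPM in DMSO Ova and at 357, 437, 392, 402 and 395 CPM in iBET Ova. With IC, Rab8b stood at 549.7, 639, 655, 733 and 569 CPM in DMSO and at 486, 521, 483, 537 and 469.7 CPM in iBET. Rab8b did not overlap between groups and fell with Ova (log2 fold change -0.43 ± 0.076 (SE), edgeR adjusted p = 6.82e-05) and with IC (log2 fold change -0.33 ± 0.076 (SE), edgeR adjusted p = 8.71e-04). Rab8a stood at 122, 106, 104, 119 and 120.2 CPM in DMSO Ova and at 84.8, 77.8, 86.1, 95.0 and 96.6 CPM in iBET Ova. With IC, Rab8a stood at 126, 122, 135, 142 and 144 CPM in DMSO and at 108, 91.8, 94.1, 108 and 91.3 CPM in iBET. Rab8a did not overlap between groups either and fell with Ova (log2 fold change -0.37 ± 0.075 (SE), edgeR adjusted p = 2.73e-04) and with IC (log2 fold change -0.44 ± 0.075 (SE), edgeR adjusted p = 4.69e-05). The Rab8a to Rab8b CPM ratio was 0.214 ± 0.0159 in DMSO Ova and 0.223 ± 0.0269 in iBET Ova (SD, n = 5), a difference smaller than its spread.

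Rab13, known from tight junctions and surface delivery, had 41 to 201 counts per library. Rab13 stood at 4.91, 5.75, 6.78, 7.04 and 8.05 CPM in DMSO Ova and at 2.99, 2.22, 3.68, 4.68 and 5.11 CPM in iBET Ova. With IC, Rab13 stood at 4.08, 4.31, 6.72, 8.24 and 6.66 CPM in DMSO and at 3.26, 2.99, 4.35, 3.72 and 4.73 CPM in iBET. It was lower in each mouse with Ova (log2 fold change -0.79 ± 0.22 (SE), edgeR adjusted p = 0.00509) and with IC (log2 fold change -0.67 ± 0.22 (SE), edgeR adjusted p = 0.0156), and the groups overlapped in both. With IC its edgeR adjusted p was 0.0593 without mouse C and 0.103 without mouse D. Rab14, of traffic between endosomes and the Golgi, changed less. Rab14 stood at 177, 203, 231, 247 and 220.5 CPM in DMSO Ova and at 179.6, 199, 188, 199 and 158 CPM in iBET Ova. With IC, Rab14 stood at 224, 204, 209, 190.0 and 203 CPM in DMSO and at 151, 158, 166, 161 and 193 CPM in iBET. It was lower in 4 of 5 mice with Ova (log2 fold change -0.22 ± 0.088 (SE), edgeR adjusted p = 0.0368) and lower in 5 of 5 mice with IC (log2 fold change -0.31 ± 0.088 (SE), edgeR adjusted p = 0.00514), and the groups overlapped in both. The Ova value depended on the mice: the log2 fold change was -0.0080 in mice A and B alone (edgeR adjusted p = 0.957) and -0.31 in mice C, D and E alone (edgeR adjusted p = 0.0120), and the adjusted p was 0.0636 without mouse B, 0.153 without mouse C, 0.106 without mouse D and 0.143 without mouse E. With IC the set of mice with the larger change was the other one, at -0.45 in mice A and B alone (edgeR adjusted p = 0.00721) and -0.18 in mice C, D and E alone (edgeR adjusted p = 0.114).

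The remaining recycling Rabs were not called with iBET in the unblocked fit of all 20 libraries. Rab10, which brings Toll-like receptor 4 to the surface, stood at 186 ± 6.10 CPM (SD, n = 5) in DMSO Ova, 192 ± 3.74 CPM (SD, n = 5) in iBET Ova, 216 ± 13.5 CPM (SD, n = 5) in DMSO IC and 200.1 ± 5.19 CPM (SD, n = 5) in iBET IC. Rab11a of the recycling endosome had 72.2 ± 3.36 CPM (SD, n = 5) in DMSO Ova and 75.7 ± 2.74 CPM (SD, n = 5) in iBET Ova. Rab11b stood at 69.8, 73.3, 69.9, 80.3 and 70.0 CPM in DMSO Ova and at 65.3, 62.0, 66.4, 77.1 and 73.8 CPM in iBET Ova. With IC, Rab11b stood at 62.2, 70.6, 64.1, 78.8 and 82.7 CPM in DMSO and at 62.5, 60.0, 62.6, 67.7 and 69.7 CPM in iBET. Rab35, of fast recycling, did not pass the test in any comparison. Rab35 stood at 86.6, 76.95, 101, 104 and 103 CPM in DMSO Ova and at 82.2, 79.5, 86.6, 92.5 and 96.5 CPM in iBET Ova. With IC, Rab35 stood at 80.0, 81.5, 84.0, 94.2 and 96.1 CPM in DMSO and at 75.6, 81.6, 79.8, 85.1 and 83.9 CPM in iBET. With the mouse as a replicate block, Rab10 and Rab11b passed as lower with IC, at log2 fold changes of -0.11 ± 0.043 for Rab10 (edgeR adjusted p = 0.0293) and -0.15 ± 0.055 for Rab11b (edgeR adjusted p = 0.0220), and Rab4b, a recycling Rab whose exons overlap the readthrough gene Gm21983 over 65.0% on the same strand, passed as higher, at 0.15 ± 0.054 for Rab4b (edgeR adjusted p = 0.0185).

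Among Rabs of the early endosome, Rab5a and Rab5b rose slightly with iBET and none fell in the unblocked fit. With Ova, 2 of 6 passed the test as higher and 0 as lower (median log2 fold change 0.080), beside 27.7% and 28.9% of all genes. With IC, 1 of 6 passed the test as higher and 0 as lower (median log2 fold change 0.010), beside 27.1% and 29.0%. The 3 Rab5 genes set up early endosomes and drive their fusion. Rab5a stood at 85.5, 87.7, 67.4, 77.4 and 86.6 CPM in DMSO Ova and at 95.7, 112, 91.9, 95.3 and 94.2 CPM in iBET Ova. With IC, Rab5a stood at 85.1, 93.1, 95.1, 104 and 75.6 CPM in DMSO and at 93.5, 98.6, 85.8, 98.7 and 90.5 CPM in iBET. Rab5a was higher in each mouse with Ova, where the groups did not overlap (log2 fold change 0.27 ± 0.086 (SE), edgeR adjusted p = 0.0106), and was not called with IC. Rab5b stood at 161, 153, 148, 165 and 169 CPM in DMSO Ova and at 179.6, 174, 169, 181 and 174 CPM in iBET Ova. With IC, Rab5b stood at 156, 142, 142, 153 and 155 CPM in DMSO and at 174, 163, 161, 179.5 and 167 CPM in iBET. Rab5b rose with Ova, where the groups overlapped (log2 fold change 0.14 ± 0.052 (SE), edgeR adjusted p = 0.0261), and with IC, where they did not overlap (log2 fold change 0.17 ± 0.052 (SE), edgeR adjusted p = 0.00720). Its Ova call had an edgeR adjusted p of 0.0725 without mouse A and 0.0631 without mouse D, and of 0.159 with library size in place of TMM. Rab5c stood at 202, 183, 159, 171 and 167 CPM in DMSO Ova and at 189, 164, 174, 178 and 184 CPM in iBET Ova. With IC, Rab5c stood at 206, 201, 183, 199.6 and 199.7 CPM in DMSO and at 214, 198, 185, 189 and 187 CPM in iBET. Rab5c, the most abundant per length of the 3, was not called with either stimulus. Rab31, a relative of Rab22a in endosome to Golgi traffic, was not called in the unblocked fit of all 20 libraries and passed with the replicate block as higher with Ova, at a log2 fold change of 0.20 ± 0.049 for Rab31 (edgeR adjusted p = 0.00154). In mice C, D and E alone Rab31 was called too (0.34, edgeR adjusted p = 0.00219), and in mice A and B alone it was not (0.048, edgeR adjusted p = 0.737). Rab22a passed with the block as lower with IC, at -0.13 ± 0.054 for Rab22a (edgeR adjusted p = 0.0471).

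In the group of endoplasmic reticulum and Golgi Rabs, Rab33b rose and Rab19 fell. With Ova, 2 of 11 passed the test as higher and 2 as lower (median log2 fold change 0.015), beside 27.7% and 28.9% of all genes. With IC, 3 of 11 passed the test as higher and 2 as lower (median log2 fold change -0.068), beside 27.1% and 29.0%. Rab33b (GRCm38 chr3:51483920-51496232, plus strand) acts at the Golgi and binds Atg16L1 of the autophagy machinery. Rab33b stood at 17.3, 15.4, 14.5, 15.2 and 12.3 CPM in DMSO Ova and at 33.7, 33.6, 31.9, 32.3 and 29.0 CPM in iBET Ova. With IC, Rab33b stood at 14.0, 18.0, 14.0, 16.8 and 13.6 CPM in DMSO and at 32.9, 33.7, 26.5, 28.3 and 28.9 CPM in iBET. All iBET libraries were above all DMSO libraries, and Rab33b was 2.15-fold higher with Ova (log2 fold change 1.10 ± 0.10 (SE), edgeR adjusted p = 9.63e-09) and 1.97-fold higher with IC (log2 fold change 0.98 ± 0.10 (SE), edgeR adjusted p = 5.01e-08). The predicted gene Gm38160 on the opposite strand overlaps 18.7% of its exons, and the strand setting of the counting was not stated. Rab6a, of transport back from the Golgi to the endoplasmic reticulum, rose less. Rab6a stood at 121, 117, 96.7, 98.8 and 113 CPM in DMSO Ova and at 142, 159.9, 136, 137 and 132 CPM in iBET Ova. With IC, Rab6a stood at 117, 121, 114, 108 and 101 CPM in DMSO and at 131, 140.5, 126, 125 and 117 CPM in iBET. It was higher in each mouse with Ova, where the groups did not overlap (log2 fold change 0.37 ± 0.075 (SE), edgeR adjusted p = 2.91e-04), and with IC, where they overlapped (log2 fold change 0.19 ± 0.074 (SE), edgeR adjusted p = 0.0359). The IC call had an edgeR adjusted p of 0.0672 without mouse A, 0.0549 without mouse C, 0.0949 without mouse D and 0.0690 without mouse E, and of 0.108 with library size in place of TMM. Mrpl48, which overlaps 19.0% of Rab6a exons on the opposite strand, was lower with iBET, at a log2 fold change of -0.25 with Ova and -0.20 with IC.

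Rab19, a little studied Golgi Rab (GRCm38 chr6:39381175-39390380, plus strand), had the second largest fall of the family. Rab19 stood at 6.23, 7.17, 5.27, 5.46 and 5.23 CPM in DMSO Ova and at 1.62, 1.14, 1.23, 1.62 and 1.76 CPM in iBET Ova. With IC, Rab19 stood at 6.41, 6.40, 6.07, 6.33 and 5.12 CPM in DMSO and at 2.29, 1.29, 1.71, 1.91 and 0.834 CPM in iBET. Its groups did not overlap with 15 to 165 counts per library, and it was 3.94-fold lower with Ova (log2 fold change -1.98 ± 0.19 (SE), edgeR adjusted p = 3.89e-08) and 3.73-fold lower with IC (log2 fold change -1.90 ± 0.19 (SE), edgeR adjusted p = 5.86e-08). Rab6b, the relative of Rab6a found mainly in neurons, fell from 3.66 ± 1.13 CPM (SD, n = 5) in DMSO Ova to 1.85 ± 0.253 CPM (SD, n = 5) in iBET Ova (log2 fold change -0.99 ± 0.23 (SE), edgeR adjusted p = 0.00112) and was not called with IC, at 2.70 ± 0.568 CPM (SD, n = 5) in DMSO and 2.11 ± 0.568 CPM (SD, n = 5) in iBET. With the replicate block it passed with IC too, at -0.36 ± 0.15 for Rab6b (edgeR adjusted p = 0.0458), and the interaction did not pass. Rab1, which tethers vesicles between endoplasmic reticulum and Golgi, was called with IC alone. Rab1 stood at 167, 176, 133, 148 and 157 CPM in DMSO Ova and at 147, 176, 151, 155 and 159 CPM in iBET Ova. With IC, Rab1 stood at 202, 226, 218, 223 and 188 CPM in DMSO and at 170.3, 192, 169, 179.6 and 176 CPM in iBET. It was lower in 5 of 5 mice with IC (log2 fold change -0.25 ± 0.075 (SE), edgeR adjusted p = 0.00725), where the groups overlapped. Rab2b was higher in 4 of 5 mice with IC (log2 fold change 0.26 ± 0.10 (SE), edgeR adjusted p = 0.0313), but 59.3% of its exons overlap Tox4 on the opposite strand, which was itself higher by 0.42 on the log2 scale, and the edgeR adjusted p of Rab2b was 0.161 without mouse A, 0.0841 without mouse C and 0.102 without mouse D, and 0.0608 with library size in place of TMM. Rab43, of the Golgi, was not called in the unblocked fit of all 20 libraries and passed with the replicate block as higher with iBET in IC, at 0.18 ± 0.053 for Rab43 (edgeR adjusted p = 0.00612). It shares 75.4% of its exons with Gm45140 on the same strand.

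Among the less studied Rabs, 2 of 5 passed the test as higher under iBET with either stimulus, and none as lower. The median log2 fold change of the 5 was 0.17 with Ova and 0.15 with IC. For comparison, the iBET calls over the whole gene set made up 27.7% up and 28.9% down for Ova, and 27.1% and 29.0% for IC. Rab23, which restrains hedgehog signalling in development, had 78 to 195 counts per library. Rab23 stood at 5.17, 4.62, 6.03, 5.36 and 6.31 CPM in DMSO Ova and at 7.43, 9.05, 8.11, 8.29 and 7.49 CPM in iBET Ova. With IC, Rab23 stood at 4.93, 5.08, 4.62, 4.79 and 5.20 CPM in DMSO and at 5.96, 7.39, 7.55, 7.82 and 7.79 CPM in iBET. All iBET libraries were above all DMSO libraries with Ova (log2 fold change 0.55 ± 0.10 (SE), edgeR adjusted p = 6.59e-05) and with IC (log2 fold change 0.57 ± 0.10 (SE), edgeR adjusted p = 5.51e-05). Rab28, linked to cilia, rose in all 5 mice. Rab28 stood at 21.4, 21.05, 15.9, 17.2 and 18.5 CPM in DMSO Ova and at 27.5, 24.8, 24.0, 23.0 and 25.5 CPM in iBET Ova. With IC, Rab28 stood at 18.6, 19.2, 13.9, 17.1 and 15.0 CPM in DMSO and at 23.1, 20.9, 17.4, 20.9 and 20.5 CPM in iBET. The groups did not overlap with Ova (log2 fold change 0.41 ± 0.10 (SE), edgeR adjusted p = 0.00169) and overlapped with IC (log2 fold change 0.30 ± 0.10 (SE), edgeR adjusted p = 0.0171), where the edgeR adjusted p was 0.0532 without mouse D and 0.0882 without mouse E.

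Promoter windows of 3 members with large iBET changes are shown so that their sequence can be set beside these changes. RefSeq windows of GRCm38.p6, from 250 bases before to 50 after a start, were found for 48 of the 59 Rabs, 60 windows in all, and not for Rab7b or Rab38. Rab19 and Rab32, which fell, and Rab33b, which rose, are printed 5′ to 3′ on the strand of the gene; capitals mark a motif that was searched on both strands.
Rab19 (chr6:39381103-39381402, plus strand): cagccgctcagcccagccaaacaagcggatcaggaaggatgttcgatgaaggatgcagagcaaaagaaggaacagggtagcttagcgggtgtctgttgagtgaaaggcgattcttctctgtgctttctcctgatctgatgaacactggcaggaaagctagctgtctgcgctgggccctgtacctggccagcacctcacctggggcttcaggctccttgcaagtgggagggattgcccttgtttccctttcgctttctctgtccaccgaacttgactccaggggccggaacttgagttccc
Rab32 (chr10:10558158-10558457, minus strand): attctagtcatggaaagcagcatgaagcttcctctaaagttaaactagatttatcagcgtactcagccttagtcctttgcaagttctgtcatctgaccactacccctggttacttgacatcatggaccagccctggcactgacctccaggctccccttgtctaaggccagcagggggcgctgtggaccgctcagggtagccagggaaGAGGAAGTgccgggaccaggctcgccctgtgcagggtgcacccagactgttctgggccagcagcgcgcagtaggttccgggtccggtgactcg
Rab33b (chr3:51483716-51484015, plus strand): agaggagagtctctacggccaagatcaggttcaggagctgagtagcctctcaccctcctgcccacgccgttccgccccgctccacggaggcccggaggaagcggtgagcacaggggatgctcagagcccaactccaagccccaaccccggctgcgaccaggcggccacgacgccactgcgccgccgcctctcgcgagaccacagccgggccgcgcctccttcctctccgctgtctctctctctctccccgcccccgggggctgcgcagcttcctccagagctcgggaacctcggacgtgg
The Rab32 window holds the PU.1 motif GAGGAAGT and 10 CpG, and the Rab19 and Rab33b windows hold none of the motifs searched, with 9 and 28 CpG. Rab windows had a median of 19.5 CpG, against 7 in all 32851 windows. GAGGAAGT was in 3.33% of Rab windows and 3.2% of all, the TATA box TATAAA in 6.67% and 13.6%, the E-box CACGTG in 10.0% and 7.15%, the CRE TGACGTCA in 3.33% and 1.79%, and the AP-1 motif TGACTCA in 5.0% and 5.2%.

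The second question was which Rabs followed Fc receptor cross-linking by IC, and whether they did so under iBET. In DMSO, 9 of 46 passed the test as higher with IC (19.6%) and 2 as lower (4.35%), beside 9.59% and 10.7% of all genes. In iBET, 5 were higher (10.9%) and 1 lower (2.17%), beside 5.19% and 6.63%. The median log2 fold change of the 46 was 0.017 in DMSO and 0.013 in iBET, against -0.024 and -0.014 over all genes. These counts depended on the fit. With the mouse as a replicate block, 15 were higher and 8 lower in DMSO, beside 18.3% and 19.8% of all genes, and 10 higher and 5 lower in iBET, beside 14.2% and 14.7%. With library size in place of TMM, which moved the median of all genes to -0.13 in DMSO and -0.12 in iBET, 3 were higher and 7 lower in DMSO, beside 4.67% and 20.8%, and 1 higher and 6 lower in iBET, beside 2.51% and 16.3%. The split of higher to lower calls thus turned with the scaling. Without mouse C or without mouse D, 5 were higher in DMSO, beside 568 of 12517 genes and 659 of 12426 genes. When any 1 mouse was left out, 0 to 1 were lower in DMSO, beside 612 to 1255 of all genes.

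**Figure D4:**
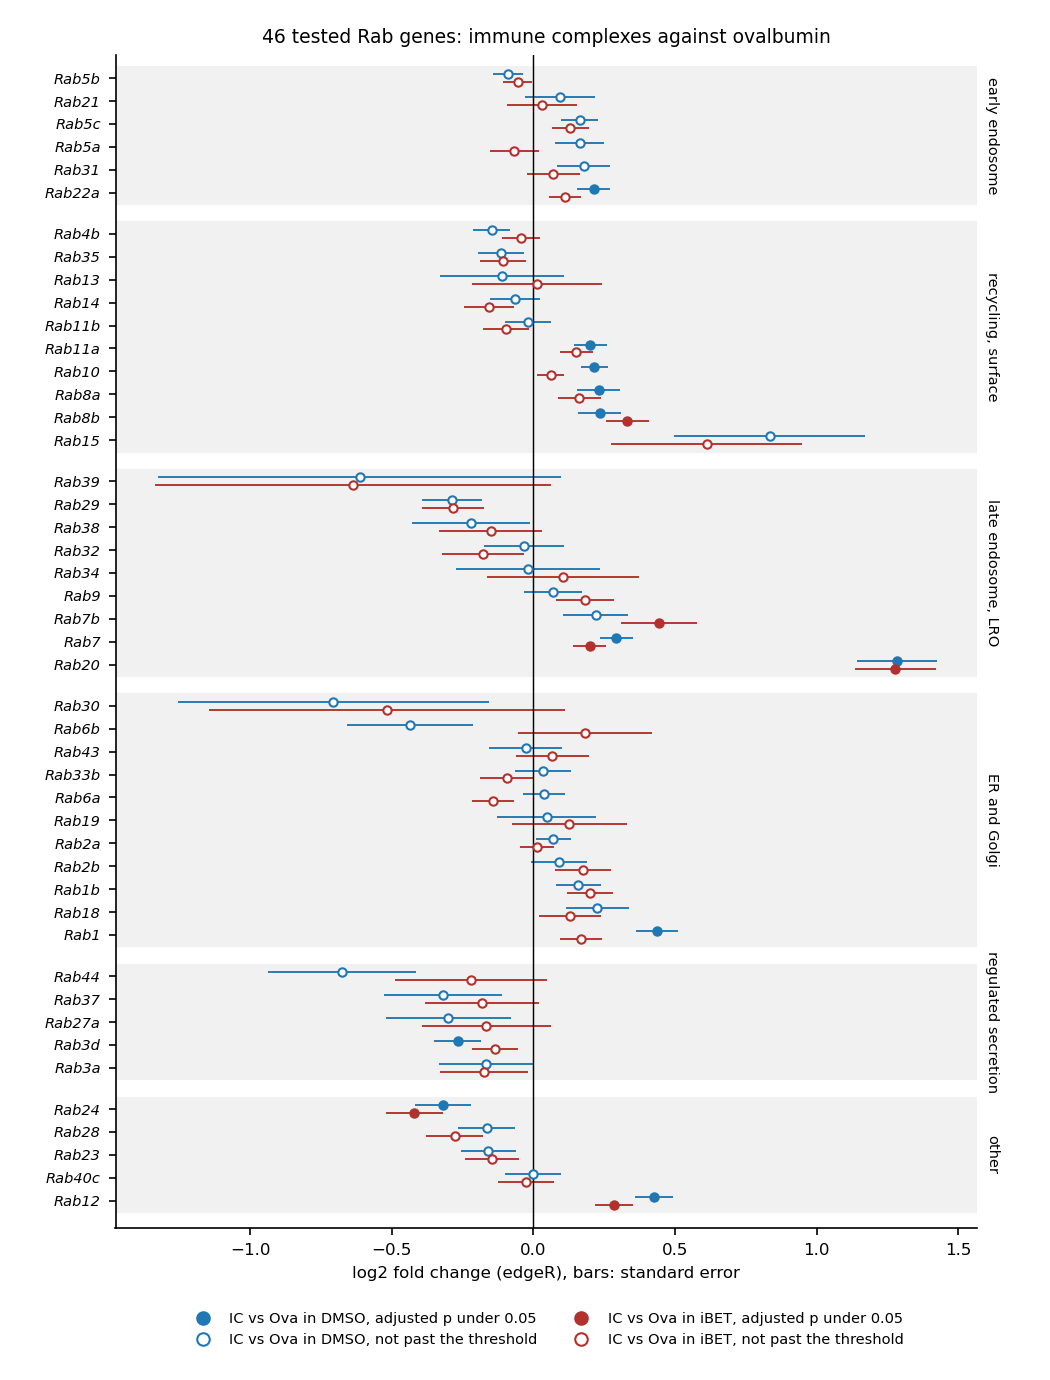
Log2 fold change of IC against Ova for the 46 tested Rab genes, in DMSO (blue) and in iBET (red), in groups by role, bars giving the standard error and filled points the genes with an edgeR adjusted p under 0.05. Rab20 stands apart at 1.28 in both, and Rab24 is lower in both.

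Rab20 (GRCm38 chr8:11453518-11478710, minus strand), a Rab of phagosome maturation and endosome fusion, was the member that IC raised most. In DMSO, Rab20 stood at 10.9, 8.83, 11.2, 9.35 and 9.03 CPM with Ova and at 24.1, 26.2, 29.5, 18.2 and 22.3 CPM with IC. In iBET, Rab20 stood at 9.74, 7.70, 10.4, 6.71 and 9.79 CPM with Ova and at 22.2, 21.7, 26.9, 17.6 and 19.0 CPM with IC. Each IC library lay above each Ova library of the same treatment. It was 2.44-fold higher in DMSO (log2 fold change 1.28 ± 0.14 (SE), edgeR adjusted p = 4.43e-06) and 2.42-fold higher in iBET (log2 fold change 1.28 ± 0.14 (SE), edgeR adjusted p = 7.00e-06). This call held under every alternative fit, and in DMSO the log2 fold change was 1.33 in mice A and B alone (edgeR adjusted p = 0.00393) and 1.26 in mice C, D and E alone (edgeR adjusted p = 8.45e-04). E230013L22Rik, a transcript that covers 25.6% of the Rab20 exons on the opposite strand, rose with IC too (log2 fold change 0.89 ± 0.27 (SE), edgeR adjusted p = 0.0239 in DMSO and log2 fold change 1.47 ± 0.31 (SE), edgeR adjusted p = 0.00456 in iBET), from 0.344 to 0.648 mean CPM in DMSO and from 0.167 to 0.476 in iBET. The Rab20 window is shown because it is the leading IC responder. Its capitals mark the E-box CACGTG, and it holds 16 CpG.
Rab20 (chr8:11478591-11478890, minus strand): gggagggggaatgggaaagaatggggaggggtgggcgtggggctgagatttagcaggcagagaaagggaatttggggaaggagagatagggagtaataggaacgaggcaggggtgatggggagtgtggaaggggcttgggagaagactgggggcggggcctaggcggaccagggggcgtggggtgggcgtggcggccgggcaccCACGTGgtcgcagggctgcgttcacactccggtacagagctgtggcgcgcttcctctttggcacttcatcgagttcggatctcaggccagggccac
The same E-box was found in 6 of the 60 Rab windows.

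**Figure D5:**
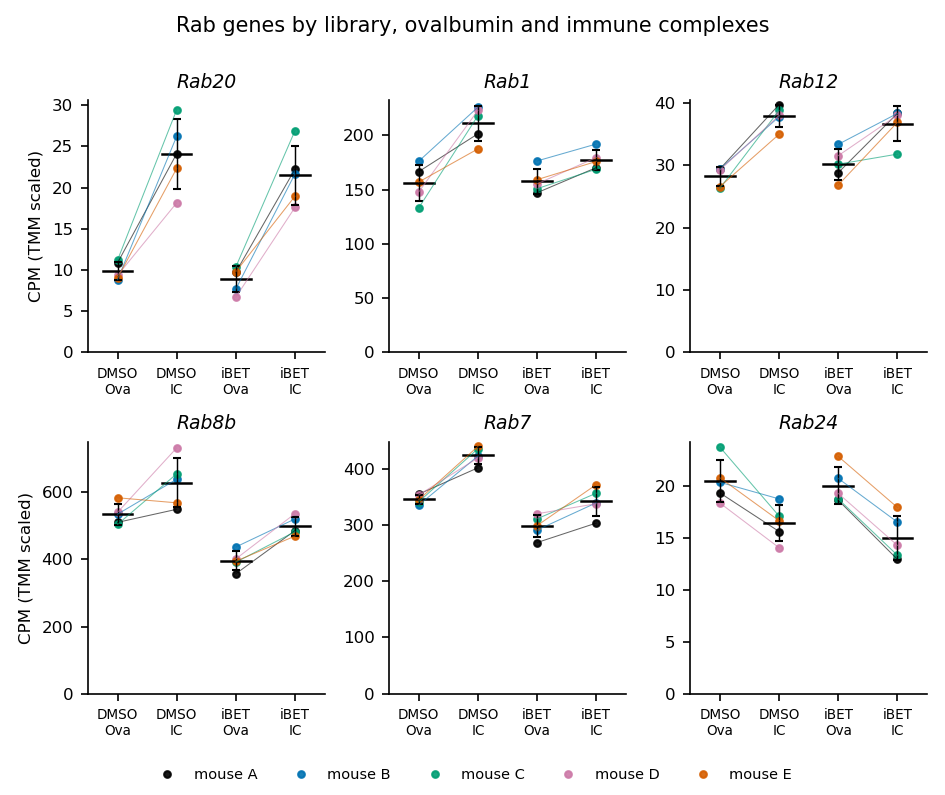
CPM of 6 Rab genes in each library, with points coloured by mouse, lines joining the Ova and IC libraries of 1 mouse, and bars giving the mean ± SD of 5 mice per group. The lines of Rab20 rise in all 5 mice with either treatment, from 6.71 to 11.2 CPM with Ova to 17.6 to 29.5 CPM with IC, those of Rab24 fall, and Rab8b starts lower in iBET and rises from there.

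Rab1 and Rab12 followed at a distance. In DMSO, Rab1 stood at 167, 176, 133, 148 and 157 CPM with Ova and at 202, 226, 218, 223 and 188 CPM with IC. Rab1 in DMSO did not overlap between groups and rose in 5 of 5 mice (log2 fold change 0.44 ± 0.075 (SE), edgeR adjusted p = 4.60e-04). In iBET, Rab1 stood at 147, 176, 151, 155 and 159 CPM with Ova and at 170.3, 192, 169, 179.6 and 176 CPM with IC. In iBET it was not called in the unblocked fit of all 20 libraries and passed with the replicate block, at a log2 fold change of 0.17 ± 0.058 for Rab1 (edgeR adjusted p = 0.0363). Rab12, which sends transferrin receptors to degradation, rose in both settings. In DMSO, Rab12 stood at 29.4, 29.4, 26.3, 29.2 and 26.6 CPM with Ova and at 39.7, 37.8, 38.8, 38.0 and 35.0 CPM with IC. In iBET, Rab12 stood at 28.8, 33.3, 30.2, 31.5 and 26.8 CPM with Ova and at 38.3, 38.3, 31.8, 38.0 and 36.9 CPM with IC. Its groups did not overlap in DMSO (log2 fold change 0.42 ± 0.067 (SE), edgeR adjusted p = 2.07e-04) and overlapped in iBET (log2 fold change 0.28 ± 0.067 (SE), edgeR adjusted p = 0.00897), where the edgeR adjusted p was 0.0637 without mouse A and 0.0521 without mouse D, and 0.0779 with library size in place of TMM.

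Among the Rabs of late endosomes, Rab7 and Rab7b also rose. In DMSO, Rab7 stood at 356, 336, 342, 354 and 346 CPM with Ova and at 402, 423, 436, 420.1 and 441 CPM with IC. In iBET, Rab7 stood at 269, 291, 311, 321 and 299 CPM with Ova and at 304, 340.0, 357, 338 and 373 CPM with IC. Rab7 did not overlap between groups in DMSO (log2 fold change 0.29 ± 0.058 (SE), edgeR adjusted p = 0.00160), and the smaller rise in iBET (log2 fold change 0.20 ± 0.058 (SE), edgeR adjusted p = 0.0312) had an edgeR adjusted p of 0.156 without mouse B, 0.135 without mouse C, 0.0709 without mouse D and 0.130 without mouse E. Rab7b, at its low level under iBET, was higher in 5 of 5 mice (log2 fold change 0.44 ± 0.13 (SE), edgeR adjusted p = 0.0346), with an adjusted p of 0.132 without mouse A, 0.159 without mouse C, 0.0784 without mouse D and 0.0521 without mouse E, and in DMSO it passed with the replicate block and not in the unblocked fit, at 0.23 ± 0.080 for Rab7b (edgeR adjusted p = 0.0321). With library size in place of TMM neither Rab7 (edgeR adjusted p = 0.0503 in DMSO and 0.390 in iBET) nor Rab7b (edgeR adjusted p = 0.0742 in iBET) was called. By role, 2 of 9 late endosome and lysosome-related Rabs passed as higher in DMSO and 3 in iBET, beside 9.59% and 5.19% of all genes. None passed as lower, beside 10.7% in DMSO and 6.63% in iBET.

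Of the 10 tested Rabs of recycling and surface delivery, 4 passed as higher in DMSO and 1 in iBET, beside 9.59% and 5.19% of all genes. None passed as lower, beside 10.7% of all genes in DMSO and 6.63% in iBET. In DMSO, Rab8b stood at 511, 535, 505, 541 and 584 CPM with Ova and at 549.7, 639, 655, 733 and 569 CPM with IC. In iBET, Rab8b stood at 357, 437, 392, 402 and 395 CPM with Ova and at 486, 521, 483, 537 and 469.7 CPM with IC. Rab8b rose in 4 of 5 mice in DMSO (log2 fold change 0.23 ± 0.076 (SE), edgeR adjusted p = 0.0339) and in 5 of 5 in iBET (log2 fold change 0.33 ± 0.076 (SE), edgeR adjusted p = 0.00726). In DMSO its edgeR adjusted p was 0.0876 without mouse B, 0.182 without mouse C and 0.172 without mouse D. Rab8a rose in each mouse in DMSO, with 104 to 122 CPM in Ova and 122 to 144 CPM in IC (log2 fold change 0.23 ± 0.075 (SE), edgeR adjusted p = 0.0352), with an adjusted p of 0.188 without mouse C, 0.106 without mouse D and 0.0859 without mouse E. In DMSO, Rab10 stood at 185, 177, 191, 187 and 192 CPM with Ova and at 205, 208, 227, 235 and 206 CPM with IC. Rab10 did not overlap between groups (log2 fold change 0.22 ± 0.048 (SE), edgeR adjusted p = 0.00367). In DMSO, Rab11a stood at 74.0, 71.5, 67.2, 76.2 and 72.3 CPM with Ova and at 82.9, 82.7, 86.2, 91.0 and 72.3 CPM with IC. In iBET, Rab11a stood at 76.7, 79.4, 71.9, 75.4 and 75.1 CPM with Ova and at 87.2, 87.6, 80.2, 86.8 and 78.5 CPM with IC. Rab11a was higher in 5 of 5 mice (log2 fold change 0.20 ± 0.059 (SE), edgeR adjusted p = 0.0202), with an adjusted p of 0.0580 without mouse B, 0.125 without mouse C and 0.0848 without mouse D. In iBET, Rab8a and Rab11a passed with the replicate block and not in the unblocked fit, at log2 fold changes of 0.16 ± 0.056 for Rab8a (edgeR adjusted p = 0.0341) and 0.15 ± 0.050 for Rab11a (edgeR adjusted p = 0.0294). With library size in place of TMM, none of the 4 passed in DMSO: edgeR adjusted p = 0.288 for Rab8b, 0.264 for Rab8a, 0.179 for Rab10 and 0.275 for Rab11a, and Rab8b in iBET was at 0.0713.

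Early endosome Rabs gave 1 call of 6, Rab22a of endosome to Golgi sorting, which rose in DMSO, with 39.1 to 46.6 CPM in Ova and 44.9 to 52.4 CPM in IC (log2 fold change 0.21 ± 0.057 (SE), edgeR adjusted p = 0.0128), with an edgeR adjusted p of 0.0625 without mouse C and 0.102 without mouse D, and 0.229 with library size in place of TMM. Of all genes, 9.59% were higher and 10.7% lower in DMSO, and 5.19% and 6.63% in iBET. Rab5c passed with the replicate block and not in the unblocked fit of all 20 libraries, at log2 fold changes of 0.17 ± 0.047 for Rab5c (edgeR adjusted p = 0.00963) in DMSO and 0.13 ± 0.047 for Rab5c (edgeR adjusted p = 0.0481) in iBET. In DMSO it was called in mice C, D and E alone (0.24, edgeR adjusted p = 0.00918) and not in mice A and B alone (0.069, edgeR adjusted p = 0.770).

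The members that fell with IC were Rab24 and Rab3d. Rab24, an atypical Rab tied to autophagy, was lower in each mouse in both settings. In DMSO, Rab24 stood at 19.4, 20.4, 23.8, 18.4 and 20.8 CPM with Ova and at 15.6, 18.8, 17.1, 14.1 and 16.7 CPM with IC. In iBET, Rab24 stood at 18.7, 20.8, 18.8, 19.3 and 22.9 CPM with Ova and at 13.0, 16.6, 13.4, 14.3 and 18.0 CPM with IC. Its groups overlapped in DMSO (log2 fold change -0.32 ± 0.10 (SE), edgeR adjusted p = 0.0289) and did not overlap in iBET (log2 fold change -0.42 ± 0.10 (SE), edgeR adjusted p = 0.00954). The edgeR adjusted p was 0.0555 without mouse A, 0.159 without mouse C, 0.0911 without mouse D and 0.0559 without mouse E in DMSO and 0.0543 without mouse C in iBET. Prelid1, which overlaps 62.4% of the Rab24 exons on the opposite strand had 232 ± 21.7 CPM in DMSO Ova and 263 ± 10.8 CPM in DMSO IC (SD, n = 5) and was not called in this fit. In DMSO, Rab3d stood at 100.3, 97.3, 76.3, 97.0 and 82.2 CPM with Ova and at 77.9, 78.3, 66.6, 78.7 and 75.3 CPM with IC. Rab3d was lower in 5 of 5 mice in DMSO (log2 fold change -0.27 ± 0.083 (SE), edgeR adjusted p = 0.0278), with an adjusted p of 0.0921 without mouse A, 0.0762 without mouse B, 0.0616 without mouse C, 0.0917 without mouse D and 0.0507 without mouse E. In iBET it was not called. Of the 5 tested secretory Rabs, Rab3d was the 1 that passed with IC in the unblocked fit. The shares of all genes were 9.59% higher and 10.7% lower in DMSO, and 5.19% and 6.63% in iBET.

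The replicate block added falls with IC that the unblocked fit did not call. In DMSO the log2 fold change with the block was -0.29 ± 0.070 for Rab29 (edgeR adjusted p = 0.00338), -0.31 ± 0.063 for Rab27a (edgeR adjusted p = 8.21e-04), -0.67 ± 0.14 for Rab44 (edgeR adjusted p = 0.00103), -0.43 ± 0.14 for Rab6b (edgeR adjusted p = 0.0232) and -0.15 ± 0.054 for Rab4b (edgeR adjusted p = 0.0383). In iBET it was -0.29 ± 0.076 for Rab29 (edgeR adjusted p = 0.00865), -0.28 ± 0.062 for Rab28 (edgeR adjusted p = 0.00244), -0.19 ± 0.058 for Rab32 (edgeR adjusted p = 0.0183) and -0.14 ± 0.052 for Rab6a (edgeR adjusted p = 0.0465). Rises that the block added were 0.19 ± 0.049 for Rab31 (edgeR adjusted p = 0.00609), 0.23 ± 0.076 for Rab18 (edgeR adjusted p = 0.0267), 0.78 ± 0.26 for Rab15 (edgeR adjusted p = 0.0231, on 6 to 66 counts per library) and 0.16 ± 0.057 for Rab1b (edgeR adjusted p = 0.0349) in DMSO and 0.20 ± 0.057 for Rab1b (edgeR adjusted p = 0.0121) in iBET. Of these added calls in DMSO, Rab44, Rab27a, Rab6b, Rab31 and Rab1b were also called in mice C, D and E alone, without a block, and in iBET Rab32 was. None of them was called in mice A and B alone. There the edgeR adjusted p in DMSO was 0.684 for Rab44, 0.222 for Rab27a, 0.739 for Rab6b, 0.846 for Rab31 and 0.819 for Rab1b, and in iBET 0.847 for Rab32.

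The design also allows the question whether iBET acted differently with IC than with Ova. With edgeR's interaction test, 0 of the 46 Rabs passed, beside 0.0401% of all genes, and 2 had an unadjusted p under 0.05, beside 543 of all 12465 genes. DESeq2 called 0 and had 2 under 0.05 unadjusted, beside 531 of all genes. With the replicate block, edgeR called 0 Rabs, beside 0.818% of all genes, and 6 had an unadjusted p under 0.05, beside 1395 of all genes. DESeq2 with the block called 0 too and had 6 under 0.05 unadjusted, beside 1258 of all genes. The 2 of edgeR without the block were Rab1 and Rab10, both with a more negative iBET effect in IC in 5 of 5 mice: the interaction was -0.27 ± 0.11 for Rab1 and -0.15 ± 0.068 for Rab10 on the log2 scale (SE, edgeR adjusted p = 0.997 for Rab1 and 1.00 for Rab10). A gene called with 1 stimulus and not with the other, such as Rab5a or Rab6b, was therefore not shown to respond differently. The comparisons share their groups, so their values are given side by side and were not correlated.

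The machinery that loads, unloads and reads Rabs was counted in lists of exchange factors, GTPase activating proteins, escort and prenylation proteins, and effectors. Of its 108 tested genes, 34 passed as higher and 39 as lower with iBET in Ova, and 29 and 36 in IC, shares of 31.5% and 36.1% and 26.9% and 33.3%, beside 27.7% and 28.9% of all genes in Ova and 27.1% and 29.0% in IC. With IC in DMSO, 15 were higher and 17 lower (13.9% and 15.7%), beside 9.59% and 10.7%, and in iBET 10 and 5 (9.26% and 4.63%), beside 5.19% and 6.63%. Among 34 exchange factors, 9 were higher and 13 lower with iBET in Ova, among 36 GTPase activating proteins 12 and 10, among 8 escort, prenylation and GDI genes 3 and 3, and among 30 effectors 10 and 13. Partners of the Rabs described above were looked up after their values were seen. Hps1 and Hps4 form the exchange factor of Rab32 and Rab38, and they moved apart: with Ova, Hps1 rose with iBET (log2 fold change 0.41 ± 0.062 (SE), edgeR adjusted p = 1.18e-05) and Hps4 fell (log2 fold change -0.87 ± 0.10 (SE), edgeR adjusted p = 3.19e-07). With IC the values were 0.45 for Hps1 and -0.64 for Hps4. Unc13d, the Munc13-4 effector of Rab27a in granule release, fell from 50.8 ± 6.64 to 14.8 ± 1.76 CPM with Ova (SD, n = 5; log2 fold change -1.78 ± 0.13 (SE), edgeR adjusted p = 9.24e-10). Rab3ip, an exchange factor of Rab8, rose (log2 fold change 1.36 ± 0.085 (SE), edgeR adjusted p = 9.00e-11), as did Eea1, the tethering effector of Rab5 on early endosomes (log2 fold change 0.60 ± 0.12 (SE), edgeR adjusted p = 2.48e-04). Each of these 5 iBET calls had the same direction in 5 of 5 mice with Ova. The 5 do not stand for their lists, whose other genes moved both ways with Ova. The exchange factors Rin2 and Rin3 were called lower (log2 fold changes -2.11 and -1.41), as were the effectors Appl1 and Rbsn (-0.43 and -0.20). The exchange factor Rabgef1 and the effector Rabep1 were called higher (0.40 and 0.44).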

How the data were processed

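RNA-seq was analysed for 20 libraries of murine BMDCs. Per the methods and the labels, the authors trimmed reads, aligned them to mm10 with HISAT2, counted them on genes with featureCounts and deposited the raw counts per gene, which are used here. The annotation, the strand setting and the handling of reads that match several genes were not given in the sources used here. A second deposited table, the same counts divided by 1 factor per library, was not used. Rabs and gene lists were chosen with earlier results of these data known.

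Genes were kept by filterByExpr (minimum count 10), scaled by TMM, and fitted in edgeR 4.0.16 (R 4.3.3, quasi-likelihood test) on a design holding just the 4 groups, with Benjamini-Hochberg adjustment over all 12465 genes kept of 24421; 6187 had no counts. A call is an adjusted p under 0.05. Library sizes of about 16447500 to 29245200 counts set the precision, and replicates differed by more than counting error (chi-square per degree of freedom at least 10.4 in 40 pairs), so errors are the SD between mice. Libraries of the same letter come from the same mouse, and their deviations from the group means correlated with a mean r of 0.52 (30 pairs, at least 0.31). Positions came from GENCODE M21 (GRCm38), exon overlaps from its union of exons, and promoter windows from RefSeq GRCm38.p6.

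Rabs named with values in every library were up to 8 per direction for iBET and up to 5 per direction for IC, by size of change among calls with the same direction in 5 of 5 mice and a mean of at least 100 counts, plus 15 endosome, phagosome and antigen presentation Rabs regardless of the test. Alternatives were a replicate block, DESeq2 1.42.0 with and without the block, DESeq2 size factors, library size only, no filter, the groups compared alone, 3 surrogate variables (sva 3.50.0), sets of mice and each mouse left out. The fits on sets of mice and with 1 mouse left out did not hold the mouse as a block.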

Additional observations from a re-analysis of the deposited data

Results flagged for a closer look

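Single libraries stood apart from the other 4 of their group by Dixon's 95% criterion in 8 of 128 sets of 5 values, over 32 Rabs in 4 groups, and chance flags about 1 in 20 such groups. On the low side these were Rab23 in iBET IC of mouse A at 5.96 CPM, Rab29 in iBET Ova of mouse C at 7.82 CPM, Rab3d in DMSO IC of mouse C at 66.6 CPM, Rab12 in iBET IC of mouse C at 31.8 CPM, Rab5c in DMSO IC of mouse C at 182.5 CPM and Rab19 in DMSO IC of mouse E at 5.12 CPM. On the high side they were Rab5a in iBET Ova of mouse B at 112 CPM and Rab3a in iBET Ova of mouse A at 4.00 CPM. Mouse C gave 4 of the 8, in 3 of its libraries.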

How the results depend on the processing

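Of 1320 values of single Rabs recomputed under the alternatives, 1084 kept their direction and side of the threshold, 134 lost a call, 101 gained one and 1 turned in direction: Rab22a with iBET in IC, called with the replicate block and not without it over all libraries, was 0.013 on the log2 scale in mice A and B only. These values cover 88 results, each called by edgeR in the unblocked fit or with the replicate block. The 30 gains under that block were therefore fixed by this choice, and 0 calls were lost under it. The iBET calls kept in all alternatives were 13 of 21 with Ova and 8 of 20 with IC, and the IC call kept in all was that of Rab20. Counts of called Rabs moved by over 1.5 times as follows, the cause of each move not tested except that fewer samples enter some fits. In mice A and B only, 5 Rabs were higher with iBET in Ova, 4 higher and 7 lower with iBET in IC, and 1 higher and 0 lower with IC in DMSO and in iBET. Of the 12493 genes in that fit, 2669 were higher with iBET in Ova, and 2550 higher and 2682 lower with iBET in IC. With IC, 276 of them were higher and 224 lower in DMSO, and 181 and 115 in iBET. With the replicate block, 15 were higher and 8 lower with IC in DMSO and 10 and 5 in iBET, and the block moved no other count this far. DESeq2 with the block gave 15 and 7 in DMSO and 10 and 5 in iBET, beside 2241 and 2370 of 12465 genes and 1825 and 1769 of 12223. Without the block it gave 4 lower in DMSO, beside 1479 of 11981 genes. Library size only gave 3 and 7 in DMSO and 1 and 6 in iBET. Without a filter 1 was lower in DMSO and 3 higher in iBET, beside 1062 and 476 of 18234 genes. With the groups compared alone, 5 were higher and 1 lower in DMSO, beside 790 and 976 of 12137 genes, and 3 higher in iBET, beside 557 of 11983. Surrogate variables gave 7 lower in DMSO and 5 lower in iBET, beside 2036 and 1611 of 12465 genes. In mice C, D and E only, 4 were lower in DMSO and 2 higher in iBET, beside 1556 and 567 of 12534 genes. When each mouse was left out in turn, 5 to 10 were higher and 0 to 1 lower with IC in DMSO, and 2 to 4 higher and 0 to 1 lower in iBET. Over all genes these counts were 568 to 1222 and 612 to 1255 in DMSO, and 284 to 552 and 359 to 625 in iBET. With iBET, 7 to 8 Rabs were higher and 10 to 13 lower in Ova, and 6 to 9 and 9 to 12 in IC. Over all genes those counts were 3041 to 3514 and 3080 to 3446 in Ova, and 2945 to 3332 and 3101 to 3496 in IC. Depth limits the 13 Rabs that were not tested, and whether the reads of Rab24, Rab2b, Rab43 or Rab4b belong to overlapping genes cannot be told from gene counts.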
